A study of Mus musculus with 92 samples.

Results

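Livers of male CD-1 mice that had received 5 mg/kg HFPO-DA for 9 months were compared with livers of males that had received 0.5 mg/kg for the same time, 5 animals at either dose, which is 10 of the 92 livers of the series. HFPO-DA, a dimer acid of hexafluoropropylene oxide, belongs to the perfluoroalkyl ether acids and was given by mouth through a tube once a day. The comparison asks which genes had reached their response at 0.5 mg/kg and which changed only at 5 mg/kg. Both groups were therefore also compared with the 4 males at 0 mg/kg of the same duration. Levels at 0 mg/kg are printed for part of the genes. All these animals were wild type and of an outbred stock. Another 5 males at 0.1 mg/kg and 5 at 0.05 mg/kg entered the same fit, which then held 24 livers. Each library came from sections of 1 animal's fixed, paraffin-embedded liver, so replicate numbers only name animals. The sections held every cell type of the tissue, and fewer cells of a type cannot be told apart from less RNA per cell.

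RNA was measured by TempO-Seq, in which pairs of oligonucleotides anneal next to each other on a chosen transcript, are ligated and then counted by sequencing. Counts of the probes that carry one gene symbol were summed. Levels are given as CPM, which are counts scaled by TMM to a common library size, as mean ± SD over the animals. They compare animals for one gene and not one gene with another, since probes differ in efficiency. Changes are log2 values from edgeR's quasi-likelihood test with their standard error (SE), and a gene is said to have risen or fallen where its Benjamini-Hochberg adjusted p was under 0.05 over all 11371 genes tested.

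Acids of this kind are known activators of PPARα, a nuclear receptor that pairs with RXR and binds a direct repeat of hexamers near its target genes. In rodent liver it switches on the peroxisomal and mitochondrial oxidation of fatty acids, the microsomal omega-hydroxylation that feeds the peroxisome, and the proteins that take up, bind and store fatty acids. Ppara itself was at 138 ± 45.7 CPM at 0 mg/kg (n = 4), 177 ± 58.6 at 0.5 mg/kg and 141 ± 41.1 at 5 mg/kg (n = 5 in both), and no comparison called it.

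Total counts ran from 4607861 to 6319488 at 0.5 mg/kg and from 5028161 to 7717469 at 5 mg/kg. The summed CPM of 15 hepatocyte genes ran from 17552 to 39955 at 0.5 mg/kg and from 18009 to 48753 at 5 mg/kg, against 32322 to 37237 at 0 mg/kg. 3 of the 10 libraries stood apart. Replicate 4 at 0.5 mg/kg had a summed level of 1330 CPM for 14 lymphocyte and plasma cell markers, against 38 to 79 in the other 4. At 5 mg/kg, replicate 4 had 155 CPM of Afp, the fetal liver albumin relative, against 1.24 to 8.14 in the others. Replicate 5 at 5 mg/kg had the lowest summed level of 17 periportal hepatocyte genes, 1753 CPM against 6368 to 9469, and 15 CPM of 4 Y-linked genes against 56 to 72. Several counts and calls are also given without these libraries. In a fit of all 92 libraries, which pools the spread over both sexes and durations, 44 of 116 genes checked lost their call. The 116 include genes without a call to lose, such as Ppara and Cpt1a, so the share of calls lost is larger.

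From 0.5 to 5 mg/kg, 530 of the 11371 genes changed (4.66%), of which 244 rose (2.15%) and 286 fell (2.52%). Between 0 and 0.5 mg/kg only 72 genes changed (0.633%), 61 up (0.536%) and 11 down (0.0967%). Between 0 and 5 mg/kg 1437 did (12.6%), 729 up (6.41%) and 708 down (6.23%), and 1 gene, Cox6b2, was called higher at 0.05 mg/kg (0.00879%). All 72 genes called at 0.5 mg/kg had a change of the same sign at 5 mg/kg. Both changes are taken from the same control animals, which favours a shared sign, so this is a description. The range of CPM did not overlap between 0.5 and 5 mg/kg for 603 genes (5.30%), and 326 of these were among the 530. The count depended on single libraries. It was 283 without replicate 5 at 5 mg/kg, and 294, 341 and 349 without replicates 1, 2 and 3 at 0.5 mg/kg. Leaving out replicates 4 and 5 at 5 mg/kg together left 173 genes, 74 up and 99 down, and leaving out replicate 4 at 0.5 mg/kg as well gave 254, 91 up and 163 down.

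Genes with at least 10 mean counts in 1 of the 3 groups were sorted by the 3 comparisons among 0, 0.5 and 5 mg/kg. A gene was placed at a plateau where it was called at 0.5 and at 5 mg/kg against 0 in one direction and was not called for the step from 0.5 to 5 mg/kg. The 95% interval of that step also had to lie within ±1 on the log2 scale. It was called graded where it was called at 0.5 mg/kg against 0 and again for the step, in one direction. It was classed as changed only at 5 mg/kg where both comparisons of 5 mg/kg called it in one direction and 0.5 against 0 mg/kg did not. The interval of 0.5 against 0 mg/kg also had to lie within ±1. A smaller change at 0.5 mg/kg was thus not shown to be absent in this class. There were 21 genes at a plateau (17 up, 4 down), 20 graded (18 up, 2 down) and 243 changed only at 5 mg/kg (82 up, 161 down). No gene turned from one direction to the other by edgeR, and 3 did by DESeq2. A further 31 genes called at 0.5 mg/kg had a step too imprecise to place. Another 267 genes called between 0.5 and 5 mg/kg were in no class, 193 of them called against 0 mg/kg as well and 74 not. These classes share the control animals, so their sizes are a description. Just inside the plateau limit were Wdr46, with a lower bound of -0.96, and Hsdl2, with an upper bound of 0.94. Just outside it was Nceh1, a hydrolase of cholesteryl esters, with an upper bound just above 1.

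**Figure D1:**
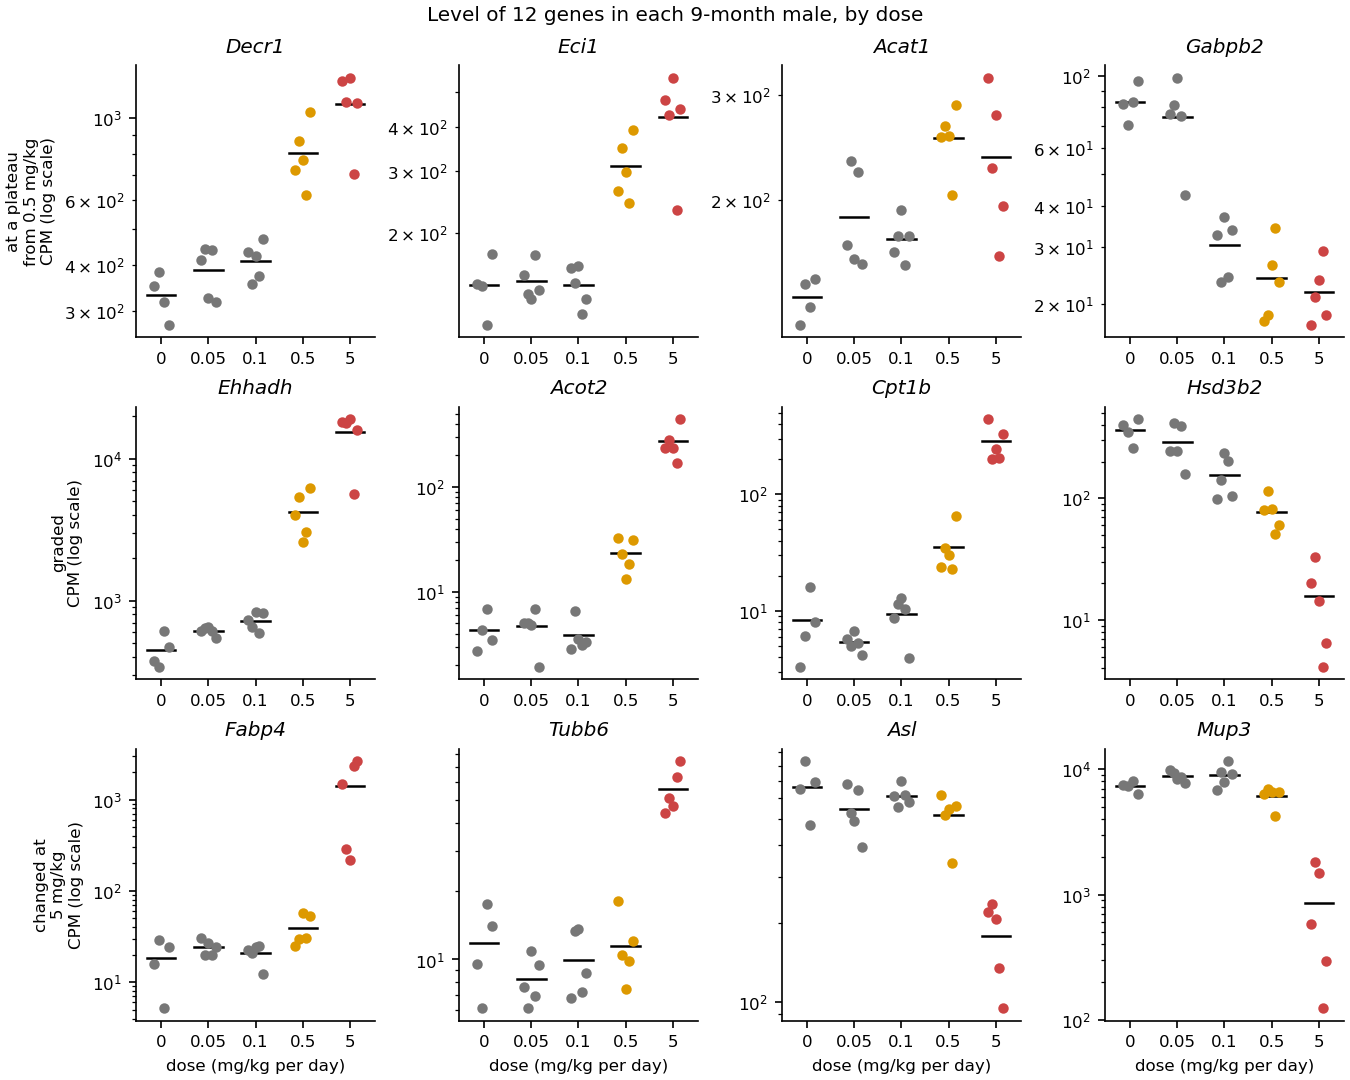
CPM of 12 genes in each 9-month male by dose (mg/kg per day), on a log axis that differs between panels, with 1 point for each of 4 or 5 animals and a bar at the mean. The top row holds genes at a plateau, the middle row graded genes and the bottom row genes whose 5 animals at 5 mg/kg lie apart from all others, such as Tubb6 at 44.2 to 74.5 CPM.

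Of the genes at a plateau, several are enzymes of fatty acid oxidation. Decr1 is a mitochondrial reductase for unsaturated fatty acids. Its 5 libraries at 0.5 mg/kg held 723, 865, 771, 616 and 1038 CPM against 349, 381, 317 and 274 CPM at 0 mg/kg, a change of 1.28 (SE 0.18, edgeR adjusted p = 0.000141). At 5 mg/kg they held 1259, 1108, 1287, 705 and 1099 CPM, a step of 0.44 with a 95% interval of 0.11 to 0.78 (adjusted p = 0.132). That interval lies above 0, so the step was not shown to be absent, only to be smaller than 1 on the log2 scale. The lowest value at 5 mg/kg, in replicate 4, lay among those at 0.5 mg/kg. Eci1, which moves double bonds for the same pathway, changed by 1.11 at 0.5 mg/kg (adjusted p = 0.0019) and stepped by 0.47 (0.11 to 0.83). Acat1, the thiolase of ketone body metabolism, showed no further rise: 137 ± 11 CPM at 0 mg/kg (n = 4), 254 ± 31.2 at 0.5 mg/kg and 236 ± 64.1 at 5 mg/kg (n = 5 in both), with a step of -0.11 (-0.42 to 0.21). In the fit of all 92 libraries the call at 0.5 mg/kg was kept for Decr1 (adjusted p = 0.00774) and lost for Eci1 (0.138) and Acat1 (0.317).

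Other members were Dbi, which binds acyl-CoA esters, at 233 ± 12.2, 441 ± 72.4 and 565 ± 133 CPM in rising order of dose. Abcd3, a transporter in the peroxisomal membrane, was at 75.1 ± 12.1, 148 ± 42.1 and 171 ± 40.7 CPM. Etfdh, which passes electrons from beta-oxidation to ubiquinone, was at 38.5 ± 12.2, 75.9 ± 14.4 and 68.7 ± 19.8 CPM, and Fitm1, a protein of lipid droplet formation, at 23.1 ± 5.61, 54 ± 9.92 and 48 ± 20.7 CPM. The last 3 lost their call at 0.5 mg/kg without single animals. These were control replicate 1 or 4 for Abcd3 (adjusted p = 0.0593 and 0.0628), control replicate 1, 2 or 4 or replicate 1, 2 or 5 at 0.5 mg/kg for Etfdh (up to 0.21), and control replicate 1, 3 or 4 or replicate 2 or 5 at 0.5 mg/kg for Fitm1 (up to 0.153). Outside these pathways, Nln, a peptidase, was at 15.7 ± 3.16, 44.6 ± 7.94 and 48.9 ± 14.1 CPM. Wdr46, a nucleolar protein, was at 17 ± 4.23, 57.1 ± 11.4 and 45.6 ± 8.10 CPM, and its adjusted p of 0.0119 at 0.5 mg/kg became 0.0557, 0.061 and 0.0526 without control replicates 1, 3 and 4. At 0.05 mg/kg Wdr46 was at 15.6, 10.5, 14.1, 19.1 and 58.4 CPM, and only replicate 5 was within the range at 0.5 mg/kg. At 0.1 mg/kg Wdr46 was at 60.6 ± 11.6 CPM. In 9-month females it was at 44.3 ± 5.33, 52.8 ± 11.3 and 39.5 ± 15.8 CPM at 0, 0.5 and 5 mg/kg. In 18-month males it was at 8.72 ± 2.67, 23.8 ± 19.7 and 9.02 ± 4.56 CPM. In the fit of all 92 libraries Dbi (adjusted p = 0.129), Abcd3 (0.361), Etfdh (0.0959), Fitm1 (0.514) and Wdr46 (0.055) lost their call.

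Of the 4 genes that fell to a plateau, Gabpb2, a subunit of the GA-binding transcription factor, changed most. It was at 81.8, 70.6, 82.9 and 96.6 CPM at 0 mg/kg, at 17.8, 18.5, 26.4, 34.3 and 23.4 CPM at 0.5 mg/kg, and at 17.3, 21, 23.7, 29.2 and 18.6 CPM at 5 mg/kg. The drop to 0.5 mg/kg was a log2 change of -1.78 (SE 0.22, edgeR adjusted p = 2.91e-05), and the step after it was -0.14 (-0.56 to 0.29). Gabpb2 was already low at 0.1 mg/kg, at 32.7, 23.4, 37.1, 24.3 and 33.8 CPM (-1.45, SE 0.22, adjusted p = 0.00231), below all 4 controls. At 0.05 mg/kg it was at 76.1, 81.1, 98.6, 75.2 and 43.3 CPM. The fall was not seen in 18-month males, at 22.7 ± 2.55, 30.9 ± 5.36 and 23.9 ± 4.83 CPM at 0, 0.5 and 5 mg/kg. In 9-month females Gabpb2 was at 73.9 ± 11.1, 34.4 ± 9.72 and 33.5 ± 9.1 CPM at these doses. Why the controls differ was not tested. Only 2 genes were called at 0.1 mg/kg (0.0176%). The other was Stip1, a co-chaperone, which had a mean of 33.6 ± 14.2 CPM at 0 mg/kg, 10.5 ± 3.65 at 0.5 mg/kg and 10.0 ± 2.29 at 5 mg/kg. At 0.5 mg/kg its adjusted p was 0.0104, but 0.0709 without replicate 3 and 0.059 without replicate 4 of the controls. In 9-month females Stip1 was not lower than in controls, at 7.57 ± 2.34, 16.4 ± 8.29 and 12 ± 5.21 CPM at 0, 0.5 and 5 mg/kg. In 18-month males it was at 24.5 ± 7.01, 12.7 ± 4.71 and 10.9 ± 6.23 CPM.

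**Figure D2:**
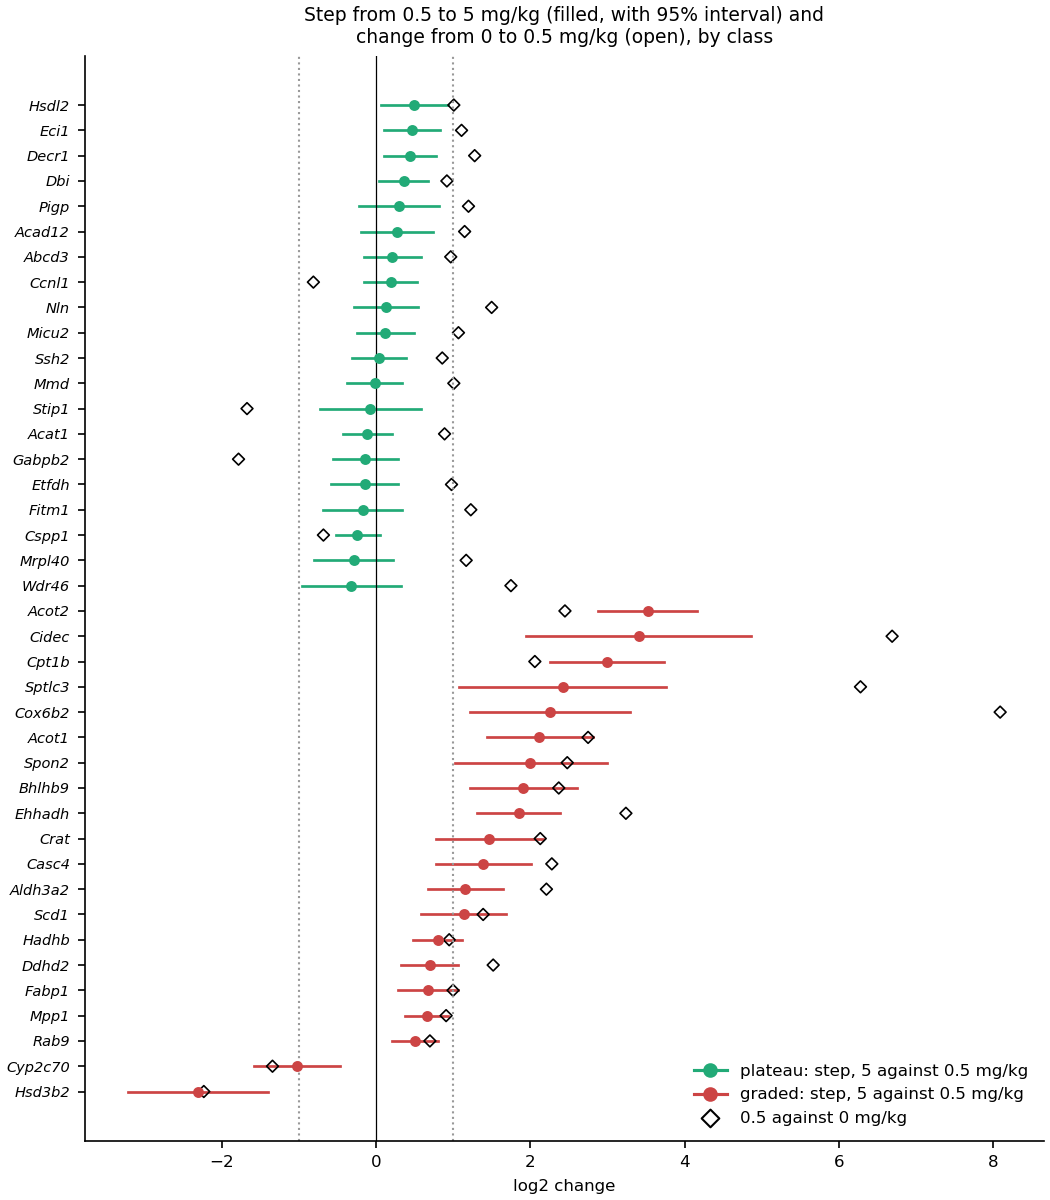
Log2 step from 0.5 to 5 mg/kg with its 95% interval (filled points and lines) for 20 of the 21 genes at a plateau (green) and the 20 graded genes (red), with the log2 change from 0 to 0.5 mg/kg as open diamonds. Dotted lines mark ±1, and Acot2 has the largest graded step at 3.52.

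Of the 20 graded genes 18 rose again between the doses and 2 fell again. Ehhadh, a bifunctional enzyme of peroxisomal beta-oxidation, was at 375, 343, 609 and 470 CPM at 0 mg/kg and at 3995, 5338, 2587, 3050 and 6247 CPM at 0.5 mg/kg. At 5 mg/kg it was at 18105, 17908, 18912, 5621 and 15989 CPM. Replicate 4 was the only animal at 5 mg/kg within the range at 0.5 mg/kg. The step was 1.85 (SE 0.26, edgeR adjusted p = 9.12e-05), and the change at 0.5 mg/kg, 3.24, was 63.6% of that at 5 mg/kg on the log2 scale.

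Acot2 and Acot1, thioesterases that release free fatty acids from CoA in mitochondria and cytosol, stepped by 3.52 and 2.12. Acot2 was at 32.4, 23, 13.4, 18.4 and 31.5 CPM at 0.5 mg/kg and at 233, 282, 235, 168 and 442 CPM at 5 mg/kg (SE 0.31, edgeR adjusted p = 2.41e-07), with no overlap. Acot1 was at 376 ± 104 and 1636 ± 658 CPM (n = 5 in both, SE 0.33, adjusted p = 0.000525), and in the fit of all 92 libraries its adjusted p was 0.0515. Probes of near-identical genes, such as Acot1 and Acot2, the Cyp4a, Cyp2c and Mup families and the serum amyloids, may bind more than one transcript, which makes differences within such a family uncertain. Only 41% of the log2 change of Acot2 at 5 mg/kg was present at 0.5 mg/kg, against 56.4% for Acot1.

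Cpt1b, the muscle form of the enzyme that admits fatty acids to mitochondria, was at 8.42 ± 5.54 CPM at 0 mg/kg, at 23.9, 34.7, 30.2, 23.1 and 65.2 CPM at 0.5 mg/kg, and at 438, 199, 246, 205 and 325 CPM at 5 mg/kg. It stepped by 3.00 (SE 0.36, edgeR adjusted p = 3.37e-05), and its groups did not overlap. The liver form Cpt1a was called in neither step, at 7.22 ± 4.59, 12.9 ± 5.44 and 14.9 ± 2.71 CPM. Hadhb, a subunit of the mitochondrial trifunctional protein, stepped by 0.80 (SE 0.16, adjusted p = 0.00272) from 209 ± 39 to 364 ± 79.5 CPM. Crat, carnitine acetyltransferase, went from 33.1 ± 9.43 to 91.7 ± 31.6 CPM (step 1.47, SE 0.33, adjusted p = 0.0101). Aldh3a2, the fatty aldehyde dehydrogenase, went from 2629 ± 770 to 5890 ± 1848 CPM (step 1.16, SE 0.24, adjusted p = 0.00398, and 0.0862 in the fit of all 92 libraries).

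Some graded genes were near or at 0 in controls. Cidec, a protein of large lipid droplets, had no count in the 4 controls, 2.08, 0.479, 1.81, 3.51 and 2.90 CPM at 0.5 mg/kg and 36.4, 24.5, 23.7, 4.26 and 28.6 CPM at 5 mg/kg. Against a floor of 3 counts over the control group, its mean was at least 15-fold higher at 0.5 mg/kg and at least 164-fold higher at 5 mg/kg. Cox6b2, a subunit form of cytochrome c oxidase known from testis, was likewise at 0 in the controls, and at 5.85 ± 2.85 and 27.9 ± 17 CPM at the 2 doses. Its mean was at least 40.8-fold and at least 195-fold higher than that floor. The step of Cox6b2 had an adjusted p of 0.241 in the fit of all 92 libraries.

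Of the 2 genes that fell in a graded way, Hsd3b2, a steroid dehydrogenase of the male liver, was at 399, 353, 261 and 445 CPM at 0 mg/kg. It was at 79.9, 115, 80.9, 51.2 and 60.7 CPM at 0.5 mg/kg and at 20.1, 33.1, 14.2, 4.13 and 6.48 CPM at 5 mg/kg. The 3 groups did not overlap, and the step was -2.31 (SE 0.43, edgeR adjusted p = 0.0033). Cyp2c70, which makes muricholic acids, fell from 1427 ± 253 to 563 ± 179 and 278 ± 122 CPM. Its step of -1.02 (adjusted p = 0.0307) was lost without replicate 1, 2, 3 or 5 at 0.5 mg/kg or 1, 3 or 5 at 5 mg/kg, with adjusted p from 0.0507 to 0.0866, without replicates 4 and 5 at 5 mg/kg together (0.126) and in the fit of all 92 libraries (0.238).

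Fabp1, the liver fatty acid binding protein, is a textbook target of PPARα, and its promoter is shown because it was the only 1 of the 51 genes called at 0.5 mg/kg with a promoter in the table that held the repeat searched for. The RefSeq promoter of Fabp1 on GRCm38.p6, chr6:71199629-71199928, plus strand, covers 250 bases before to 50 bases after the gene's start, with the match in capitals (it reads AGGNCA, any base, AGGNCA on the other strand).
Fabp1: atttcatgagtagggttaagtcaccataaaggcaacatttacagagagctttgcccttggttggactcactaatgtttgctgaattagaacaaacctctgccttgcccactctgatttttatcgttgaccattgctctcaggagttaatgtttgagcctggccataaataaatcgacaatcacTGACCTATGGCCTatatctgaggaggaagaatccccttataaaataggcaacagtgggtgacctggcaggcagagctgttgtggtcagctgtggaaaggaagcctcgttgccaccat
The motif, a direct repeat of AGGNCA with 1 base between, searched on both strands, occurred in 0.38% of 32851 promoters in the table and in 0.35% of the 8922 tested genes with a promoter there. It was in 1 of the 14 graded genes that had a promoter in the table, in 0 of 17 at a plateau and in 2 of 187 changed only at 5 mg/kg. A match is a description of these letters and no evidence of binding. Fabp1 was at 6892, 6194, 5461 and 4339 CPM at 0 mg/kg, at 12488, 12878, 10108, 8305 and 13520 CPM at 0.5 mg/kg, and at 21244, 22089, 18843, 13106 and 16399 CPM at 5 mg/kg. Only replicate 4 at 5 mg/kg was within the range at 0.5 mg/kg. The step of 0.68 (SE 0.19, edgeR adjusted p = 0.0333) lost its call without replicate 1, 3 or 4 at 0.5 mg/kg or replicate 1, 2 or 3 at 5 mg/kg, with values from 0.58 to 0.71 and adjusted p from 0.0532 to 0.0985, and its adjusted p was 0.425 in the fit of all 92 libraries.

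The sizes of these classes changed with single animals. The plateau class held 12 and 10 genes without control replicates 1 and 4, 11 and 12 without replicates 2 and 5 at 0.5 mg/kg, and 32 without replicate 4 at 0.5 mg/kg. The graded class held 12 without control replicate 4 and 33 without replicate 4 at 5 mg/kg. The class changed only at 5 mg/kg held 136 and 155 without replicates 1 and 3 at 0.5 mg/kg and 139 without replicate 5 at 5 mg/kg. Without all 3 libraries that stood apart, there were 66 genes at a plateau, 20 graded and 130 changed only at 5 mg/kg. The count of 72 genes at 0.5 mg/kg became 43 and 37 without control replicates 1 and 4 and 45 without replicate 5 at 0.5 mg/kg.

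Among the 31 genes called at 0.5 mg/kg whose step could not be placed were the microsomal omega-hydroxylases Cyp4a10, Cyp4a14 and Cyp4a31. Their family is among the most responsive PPARα targets of rodent liver. Cyp4a10 was at 40.7, 24.1, 54.2 and 19.4 CPM at 0 mg/kg, at 858, 1384, 385, 533 and 1617 CPM at 0.5 mg/kg, and at 2371, 2370, 1352, 452 and 1724 CPM at 5 mg/kg. The ranges at the 2 doses overlapped widely. Its change at 0.5 mg/kg was 4.79 (SE 0.58, edgeR adjusted p = 0.000105) and its step 0.79 (-0.13 to 1.72), so neither a plateau nor a further doubling could be shown. Cyp4a14 went from 6.10 ± 3.01 to 282 ± 185 and 449 ± 187 CPM, with a step of 0.67 (-0.30 to 1.65). The changes of Cyp4a10 and Cyp4a14 at 0.5 mg/kg were 85.8% and 89.2% of those at 5 mg/kg on the log2 scale. For Cyp4a31 the share was 72.2%, with a step of 1.09 (0.27 to 1.90). Cyp4a32 of the same family behaved otherwise. It was not called at 0.5 mg/kg and rose by 2.38 at the step and by 2.53 from 0 to 5 mg/kg.

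Cd36, a fatty acid uptake protein, went from 7.58 ± 2.32 CPM to 93.1 ± 29.9 and 212 ± 110 CPM (step 1.19, interval 0.35 to 2.02, edgeR adjusted p = 0.103). Pex11a, which drives peroxisome division, went from 28.4 ± 6.85 to 105 ± 20.3 and 165 ± 61.2 CPM (step 0.66, 0.05 to 1.27). Acaa1b, the peroxisomal thiolase, went from 12.4 ± 6.68 to 53 ± 13.3 and 77.1 ± 22 CPM (step 0.54, -0.07 to 1.15). Apoa4, an apolipoprotein, was the reverse case, at 171 ± 57.8, 36.5 ± 10.3 and 59.6 ± 38.9 CPM, and its fall at 0.5 mg/kg (-2.23, adjusted p = 0.0117) had an adjusted p of 0.0524 without control replicate 2. In the fit of all 92 libraries Pex11a (adjusted p = 0.0554), Acaa1b (0.0567) and Apoa4 (0.499) lost their call at 0.5 mg/kg.

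The oxidation pathways were counted by list. Over all genes 0.633% were called at 0.5 mg/kg and 4.66% at the step, which are the shares to set beside each list here and below. Of 24 tested genes of peroxisomal beta-oxidation, 7 rose at 0.5 mg/kg, and at the next step 2 rose and 4 fell. The median log2 change of the list was 0.53 at 0.5 mg/kg and 0.05 for the step, against 0.03 and -0.01 over all genes. Of 20 mitochondrial oxidation genes 6 rose at 0.5 mg/kg and 2 at the step, and of 14 omega-oxidation and thioesterase genes 6 rose at 0.5 mg/kg, while at the step 4 rose and 1 fell. The mitochondrial count at the step was 4 without replicates 4 and 5 at 5 mg/kg and 2 to 6 without single libraries. No test compared the steps. In replicate 4 at 5 mg/kg the mitochondrial list had a median log2 difference from the controls of 0.19, under all 5 animals at 0.5 mg/kg (0.32 to 0.92).

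**Figure D3:**
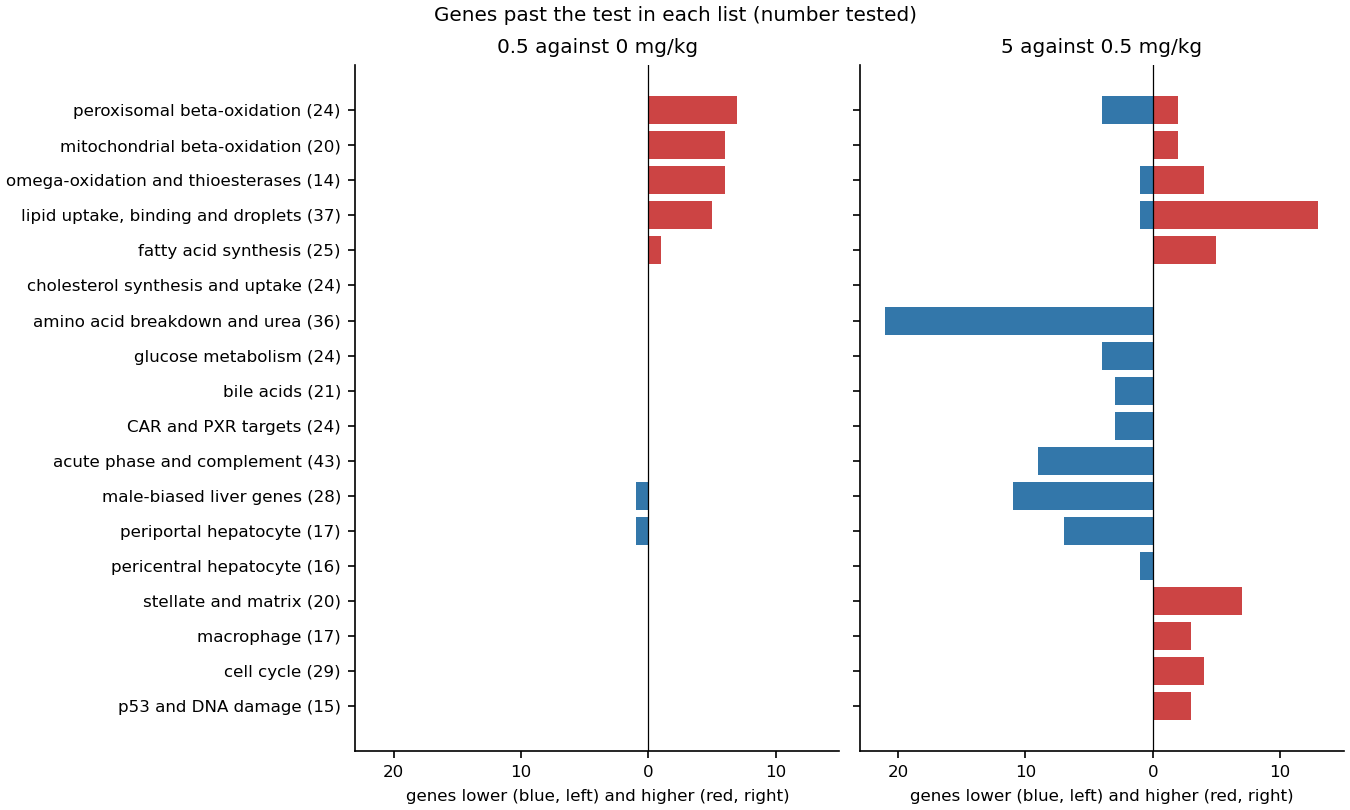
Number of genes that passed the test in each list, lower to the left (blue) and higher to the right (red), for 0.5 against 0 mg/kg and for 5 against 0.5 mg/kg, with the number tested in parentheses. The list of amino acid breakdown has 0 genes in the left panel and 21 lower in the right.

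The 4 peroxisomal genes that fell were Phyh, Pecr, Nudt7 and Scp2. Phyh, which starts the alpha-oxidation of phytanic acid, was at 418, 425, 385 and 360 CPM at 0 mg/kg and at 440, 432, 496, 288 and 399 CPM at 0.5 mg/kg, and these ranges overlapped. The 5 mg/kg animals were at 182, 236, 271, 135 and 137 CPM, below every animal of the other 2 groups (step -1.10, SE 0.18, edgeR adjusted p = 0.00045). Pecr, a trans-2-enoyl-CoA reductase, stepped by -1.31 (SE 0.22, adjusted p = 0.000645) from 111 ± 13.4 to 44.7 ± 18.4 CPM, also with no overlap. Nudt7, a CoA diphosphatase, went from 325 ± 77.9 to 144 ± 71.8 CPM (-1.18, adjusted p = 0.00731, and 0.133 in the fit of all 92 libraries). Scp2, the sterol carrier and thiolase of branched chains, went from 2957 ± 488 to 1796 ± 663 CPM (-0.72, adjusted p = 0.0475), a call that was lost without any one of 7 libraries, with values from -0.75 to -0.54 and adjusted p from 0.0751 to 0.124 (replicates 1, 2, 3 and 5 at 0.5 mg/kg and 1, 4 and 5 at 5 mg/kg). It was also lost without replicates 4 and 5 together (-0.41, adjusted p = 0.415) and in the fit of all 92 libraries (0.136). Pxmp2, a channel of the peroxisomal membrane, fell from 1028 ± 224 to 551 ± 150 CPM (-0.90, SE 0.18, adjusted p = 0.00284). In the omega-oxidation list Cyp4f14 fell, by 2.10 on the log2 scale (SE 0.33, adjusted p = 0.000449), from 33.9 ± 6.40 to 7.85 ± 6.61 CPM. At 0 mg/kg Cyp4f14 was at 60.6 ± 9.49 CPM, with all controls above all animals at 0.5 mg/kg. That change was not called (-0.84, edgeR adjusted p = 0.374).

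In the list of lipid uptake, binding and droplets, 13 of 37 tested genes rose and 1 fell at the step, against 5 up at 0.5 mg/kg. Without the 3 libraries that stood apart 8 rose, and without single libraries 7 to 15 did, the fewest without replicate 3 at 0.5 mg/kg. Fabp4, the fatty acid binding protein of adipocytes and macrophages, was at 15.8, 29.2, 5.16 and 24.1 CPM at 0 mg/kg and at 24.8, 30, 57.1, 30.2 and 52.7 CPM at 0.5 mg/kg. At 5 mg/kg it was at 1463, 290, 217, 2347 and 2638 CPM. The lowest animal at 5 mg/kg was above the highest at 0.5 mg/kg, and the step was 5.16 (SE 0.63, edgeR adjusted p = 9.11e-05).

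Most other adipocyte markers were at or near 0. Among 9 listed adipocyte genes, Lep and Retn had no count in any of the 10 libraries. In the 5 mg/kg livers Adipoq was at most 0.283 CPM, against 0.946 at 0.5 mg/kg, and Plin1 at most 1.40 CPM. The summed level of the 4 tested genes of the list, which include Fabp4, ran from 27 to 59 CPM at 0.5 mg/kg and from 225 to 2657 at 5 mg/kg. Cidea, a droplet protein of brown fat, rose from 0, 0, 0, 0.293 and 1.81 CPM to 9.56, 5.80, 3.34, 4.51 and 11.2 CPM (edgeR adjusted p = 0.0318), with an adjusted p up to 0.0919 when replicate 1, 2 or 3 at 0.5 mg/kg or 1 or 5 at 5 mg/kg was left out and 0.192 without both replicates 4 and 5 at 5 mg/kg.

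Plin2, the main coat protein of hepatocyte lipid droplets, was at 1626, 1798, 1032, 1856 and 2777 CPM at 0.5 mg/kg and at 4650, 4054, 5190, 3579 and 7727 CPM at 5 mg/kg. The groups did not overlap, and the step was 1.47 (SE 0.24, edgeR adjusted p = 0.000525). Fabp3, the muscle binding protein, was at 0 in the controls, at 0.610 ± 0.820 CPM at 0.5 mg/kg and at 59.7, 32.1, 21.7, 1.0 and 130 CPM at 5 mg/kg (step 6.25, SE 0.99, adjusted p = 0.00111). Fabp3 and Ucp3, a mitochondrial carrier that went from 1.51 ± 2.44 to 15.5 ± 5.48 CPM (adjusted p = 0.0113, and 0.0564 without the 3 libraries that stood apart), were chosen after their values were seen, and both were lowest at 5 mg/kg in replicate 4.

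Fgf21, a hormone that PPARα induces in fasting, was at 4.16, 1.44, 2.71, 2.05 and 1.63 CPM at 0.5 mg/kg and at 20.1, 18.4, 16.1, 57.3 and 38.2 CPM at 5 mg/kg (step 3.63, SE 0.61, edgeR adjusted p = 0.00065). Pdk4, a kinase that inhibits pyruvate dehydrogenase, was at 2.79 ± 1.51 and 31.4 ± 20.7 CPM (step 3.47, SE 0.66, adjusted p = 0.00254). Neither gene overlapped between the doses or was called at 0.5 mg/kg. On the log2 scale 20.8% of the change of Fgf21 and 27% of that of Pdk4 were present at 0.5 mg/kg, and 39.1% of that of Plin2, against 85.8% for Cyp4a10. These shares use the same controls and carry no test.

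In fatty acid synthesis 5 of 25 tested genes rose at the step and none fell, and 2 rose without replicates 4 and 5 at 5 mg/kg. The desaturase Scd1 was graded, at 169 ± 50, 443 ± 107 and 977 ± 240 CPM (step 1.14, SE 0.27, edgeR adjusted p = 0.0125, 0.0512 without replicate 5 at 5 mg/kg, and 0.195 in the fit of all 92 libraries). Scd2, a desaturase low in adult liver, was at 7.0, 12, 16.3, 15.2 and 15.9 CPM at 0.5 mg/kg and at 72.1, 96.1, 61.5, 130 and 301 CPM at 5 mg/kg, with no overlap (step 3.31, SE 0.42, adjusted p = 6.65e-05). Of 24 cholesterol genes none changed at either step by edgeR or DESeq2, with 6 at an unadjusted p under 0.05 at 0.5 mg/kg and 3 at the step. With 0.633% and 4.66% of all genes called, 0 of 24 is near the share over all genes.

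Enzymes of amino acid breakdown fell together between 0.5 and 5 mg/kg. Of 36 tested genes 21 fell and none rose at the step, 11 of them in the class changed only at 5 mg/kg, while none was called at 0.5 mg/kg by edgeR or DESeq2 (2 at an unadjusted p under 0.05). The median log2 change of the list was -0.264 at 0.5 mg/kg and -1.11 at the step, against 0.028 and -0.013 over all genes. Without replicates 4 and 5 at 5 mg/kg 11 fell, and 17 fell when replicate 4 at 0.5 mg/kg was also left out. With any single library left out, 16 to 21 fell.

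Of the urea cycle, Asl, the lyase that releases arginine, was at 652, 834, 473 and 692 CPM at 0 mg/kg and at 620, 520, 545, 340 and 561 CPM at 0.5 mg/kg. The 5 mg/kg animals were at 221, 238, 207, 135 and 94.5 CPM, below every other animal (step -1.53, SE 0.21, edgeR adjusted p = 7.99e-05). Ass1, which makes its substrate, was at 3832 ± 913 and 1323 ± 650 CPM (step -1.53, SE 0.29, adjusted p = 0.00182), and Slc25a15, the ornithine carrier of mitochondria, at 172 ± 25.5 and 77 ± 25.5 CPM (-1.16, SE 0.17, adjusted p = 0.00012). Otc, chosen after its values were seen, was at 268, 243, 233, 155 and 197 CPM at 0.5 mg/kg and at 105, 96.1, 120, 52.3 and 8.59 CPM at 5 mg/kg. Its adjusted p of 0.0281 became 0.0689, 0.0583 and 0.0535 without replicates 1, 2 and 3 at 0.5 mg/kg and 0.0752 without replicate 4 at 5 mg/kg. Arg1, the last enzyme of the cycle, was not called, at 6129 ± 1179 and 3492 ± 1596 CPM (adjusted p = 0.0787).

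In the methionine and glycine branch, Gnmt, which uses up S-adenosylmethionine, was at 5090, 3491, 4275, 2845 and 4213 CPM at 0.5 mg/kg and at 1120, 1348, 1096, 378 and 282 CPM at 5 mg/kg (step -2.24, SE 0.32, edgeR adjusted p = 0.00012). Bhmt, which remethylates homocysteine, was at 1362 ± 339 and 369 ± 198 CPM (-1.88, SE 0.31, adjusted p = 0.000609). Hal, the first enzyme of histidine breakdown, was at 487 ± 99.9 and 161 ± 78.3 CPM (-1.60, SE 0.28, adjusted p = 0.00167). In these 3 genes the groups did not overlap, and replicate 5 had the lowest value at 5 mg/kg.

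**Figure D4:**
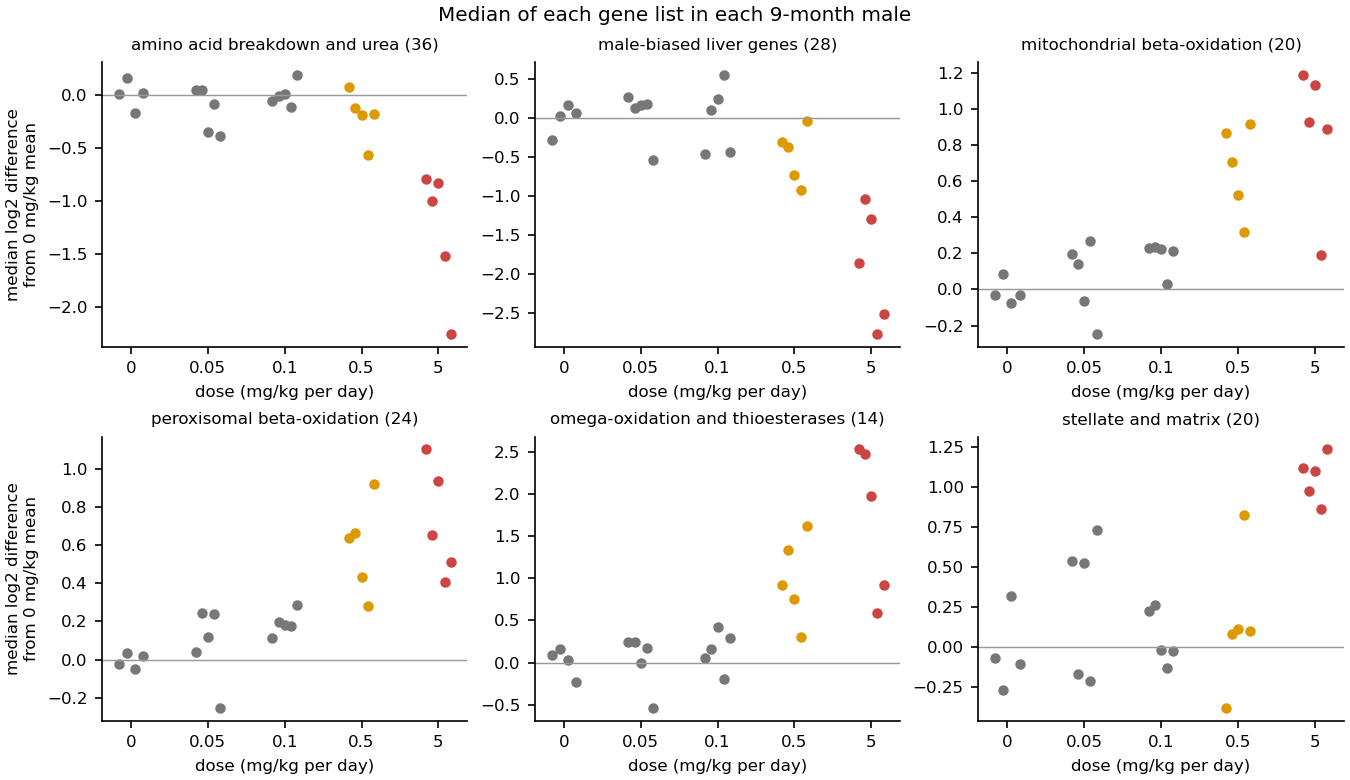
Median over the genes of 6 lists of the log2 difference (log2 of CPM + 1) from the mean of the controls, 1 point for each 9-month male, by dose (mg/kg per day). For amino acid breakdown the 5 animals at 5 mg/kg lie between -2.25 and -0.80 and the 5 at 0.5 mg/kg between -0.57 and 0.07.

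The periportal zone, where blood enters the lobule, carries much of this metabolism. Of 17 periportal hepatocyte genes 7 fell at the step (6 without the 3 libraries that stood apart), some of them shared with the amino acid list, and 1 of 16 pericentral genes did, Oat, which is on that list too. With 2.52% of all genes falling at the step, 1 of 16 is near the share over all genes. The summed level of the periportal genes was 9061 to 19078 CPM at 0.5 mg/kg and 1753 to 9469 at 5 mg/kg. That of the pericentral genes was 5088 to 14222 and 2933 to 9852 CPM. Of 15 hepatocyte identity genes 4 fell, among them Hnf4a, the nuclear receptor that maintains the hepatocyte programme, and none fell without replicate 5 at 5 mg/kg. Hnf4a was at 726, 587, 867, 437 and 441 CPM at 0.5 mg/kg and at 373, 466, 410, 378 and 395 CPM at 5 mg/kg (step -0.60, edgeR adjusted p = 0.0304). Its call was lost without replicate 1, 2 or 3 at 0.5 mg/kg or 1, 4 or 5 at 5 mg/kg, with adjusted p from 0.0512 to 0.137 and values from -0.61 to -0.44, and in the fit of all 92 libraries (adjusted p = 0.203).

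Carbohydrate, bile acid and secreted protein genes were called at the step and not at 0.5 mg/kg by edgeR. The median log2 change of the acute phase and complement list was nonetheless -0.415 at 0.5 mg/kg and -0.371 at the step. The medians were -0.184 and -0.542 for the glucose list and -0.078 and -0.636 for the bile acid list, against 0.028 and -0.013 over all genes. At 0.5 mg/kg DESeq2 called 1 of the glucose and 1 of the bile acid genes, and 3, 3 and 6 genes of the glucose, bile acid and acute phase lists had an unadjusted p under 0.05. In glucose metabolism 4 of 24 genes fell, and Khk, the fructose kinase, was at 188 ± 17.8 CPM at 0.5 mg/kg and 92.4 ± 28.9 at 5 mg/kg (-1.03, SE 0.17, edgeR adjusted p = 0.000524). At 0 mg/kg Khk was at 245 ± 15.3 CPM, with all controls above all animals at 0.5 mg/kg. Its change at 0.5 mg/kg was -0.38 (-0.74 to -0.01) and was not called. Of 21 bile acid genes 3 fell, among them Akr1d1, a reductase of bile acid synthesis, from 160 ± 30.4 to 53.9 ± 19.3 CPM, and Baat, which conjugates bile acids, from 94.4 ± 12.6 to 39.7 ± 14.4 CPM. Cyp7a1, the rate-limiting enzyme of bile acid synthesis, was not called, at 280 ± 124 and 94.5 ± 56 CPM (adjusted p = 0.0663). Of 43 acute phase and complement genes 9 fell, such as C8g, a complement subunit, from 216 ± 36.8 to 108 ± 32.5 CPM, and F11, a clotting factor, from 33.4 ± 10.6 to 11.6 ± 4.08 CPM. Without replicates 4 and 5 at 5 mg/kg, 2 glucose, 2 bile acid and 5 acute phase genes fell.

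Of 28 tested genes known for higher expression in male liver, 11 fell at the step and 1 fell at 0.5 mg/kg. The median log2 change of the list was -1.49 at the step and -0.49 at 0.5 mg/kg, against -0.013 and 0.028 over all genes. Without replicates 4 and 5 at 5 mg/kg 6 fell at the step, and with single libraries left out 4 to 14 fell, the fewest without replicate 5 at 5 mg/kg. Of 27 female-biased genes none was called at the step by edgeR (8 at an unadjusted p under 0.05, and 3 by DESeq2) and 3 rose at 0.5 mg/kg, Acot3, Cd36 and Abcd2, which are also fatty acid genes. Mup3, a major urinary protein that carries pheromones, was at 6361, 6978, 6595, 4234 and 6574 CPM at 0.5 mg/kg. At 5 mg/kg it was at 585, 1819, 1495, 123 and 295 CPM (step -2.83, SE 0.45, edgeR adjusted p = 0.000634), with no overlap. Gstp1, a glutathione transferase, was at 5162 ± 1175 and 1944 ± 775 CPM (-1.41, SE 0.29, adjusted p = 0.00398).

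Car3, an abundant carbonic anhydrase of the liver, had the largest fall among genes changed only at 5 mg/kg that are named here. It was at 1293, 1019, 1118 and 1295 CPM at 0 mg/kg, at 1557, 1218, 1339, 1195 and 1539 CPM at 0.5 mg/kg, and at 341, 364, 362, 117 and 334 CPM at 5 mg/kg (step -2.17, SE 0.24, edgeR adjusted p = 4.43e-06). Cyp2c54, an arachidonic acid epoxygenase in no class, was at 2177 ± 520, 1202 ± 263 and 112 ± 104 CPM at 0, 0.5 and 5 mg/kg (step -3.43, SE 0.47, adjusted p = 0.00019). All its animals at 0.5 mg/kg were below the controls, though that change was not called (-0.86, edgeR adjusted p = 0.568). Gm10681, a predicted gene also in no class, was at 372 ± 64.3 CPM at 0 mg/kg. It was at 156, 227, 362, 93 and 238 CPM at 0.5 mg/kg and at 3.75, 9.49, 4.71, 2.25 and 6.83 CPM at 5 mg/kg (step -5.33, SE 0.41, adjusted p = 1.09e-07). Its change at 0.5 mg/kg was -0.79 (-1.51 to -0.07) and was not called. Shh, a secreted signal of development, was at 3.33 to 8.84 CPM at 0 mg/kg, at 2.08, 4.31, 3.25, 4.25 and 0.906 CPM at 0.5 mg/kg and at 0 in all 5 livers at 5 mg/kg. Its mean at 0.5 mg/kg was at least 36.1-fold higher than a floor of 3 counts over the 5 mg/kg group.

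Targets of the xenobiotic receptors CAR and PXR gave 3 falls and no rise among 24 genes, all in the Cyp2c family, and 3 fell also without the 3 libraries that stood apart. Over all genes 2.52% fell and 2.15% rose at the step. Cyp2b10, the standard CAR target, was not called, at 53.2 ± 26 and 17.3 ± 11.2 CPM (edgeR adjusted p = 0.0611). Cyp1a2 was not called either, at 98.1 ± 33 and 38.7 ± 26.6 CPM.

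Among the 82 genes that rose only at 5 mg/kg were Tubb6, Anxa2 and App. Tubb6, a beta-tubulin, was at 9.58, 6.12, 17.5 and 14.1 CPM at 0 mg/kg and at 18, 10.5, 7.40, 9.81 and 12 CPM at 0.5 mg/kg. The 5 mg/kg animals were at 44.2, 51.1, 47.1, 63.6 and 74.5 CPM (step 2.28, SE 0.28, edgeR adjusted p = 1.96e-05). Anxa2, a membrane-binding annexin, was at 10.9 ± 2.12 CPM at 0.5 mg/kg and at 39.9, 25.8, 42.5, 35.2 and 131 CPM at 5 mg/kg (step 2.32, SE 0.43, adjusted p = 0.00233). App, the amyloid precursor, was at 18.5 ± 6.95 and 54.1 ± 32.1 CPM (1.55, adjusted p = 0.00516), and without replicates 4 and 5 at 5 mg/kg its step was 0.99 (adjusted p = 0.127).

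Of 20 stellate cell and matrix genes 7 rose at the step, and none at 0.5 mg/kg by edgeR or DESeq2 (1 at an unadjusted p under 0.05). Without replicate 5 at 5 mg/kg 3 rose. Without replicates 4 and 5 at 5 mg/kg 2 rose, and without replicate 4 at 0.5 mg/kg as well 3 did. Col4a1, a basement membrane collagen, was at 32, 47, 44.2, 29.3 and 61.8 CPM at 0.5 mg/kg and at 121, 87.5, 116, 261 and 383 CPM at 5 mg/kg (step 2.18, SE 0.36, edgeR adjusted p = 0.00115). Col3a1, a fibrillar collagen, was at 5.86 ± 1.34 and 23.1 ± 5.56 CPM (1.97, SE 0.39, adjusted p = 0.0031, and 0.0889 in the fit of all 92 libraries). Col1a1, another fibrillar collagen, chosen after its values were seen, was at 9.07 ± 6.81 CPM at 0.5 mg/kg and at 57.3, 30.4, 32.3, 44.7 and 203 CPM at 5 mg/kg. Its step of 3.00 (adjusted p = 0.0127) was 2.17 (adjusted p = 0.0515) without replicate 5 at 5 mg/kg, and its adjusted p was 0.117 without replicates 4 and 5 and 0.0593 in the fit of all 92 libraries. None of the 21 listed genes with a probe was at 0 in all 10 libraries, and Acta2, the actin of activated stellate cells, was at 5.95 CPM or less at 5 mg/kg and 5.26 or less at 0.5 mg/kg. The summed level of the list was 268 to 505 CPM at 0.5 mg/kg and 622 to 1594 at 5 mg/kg.

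**Figure D5:**
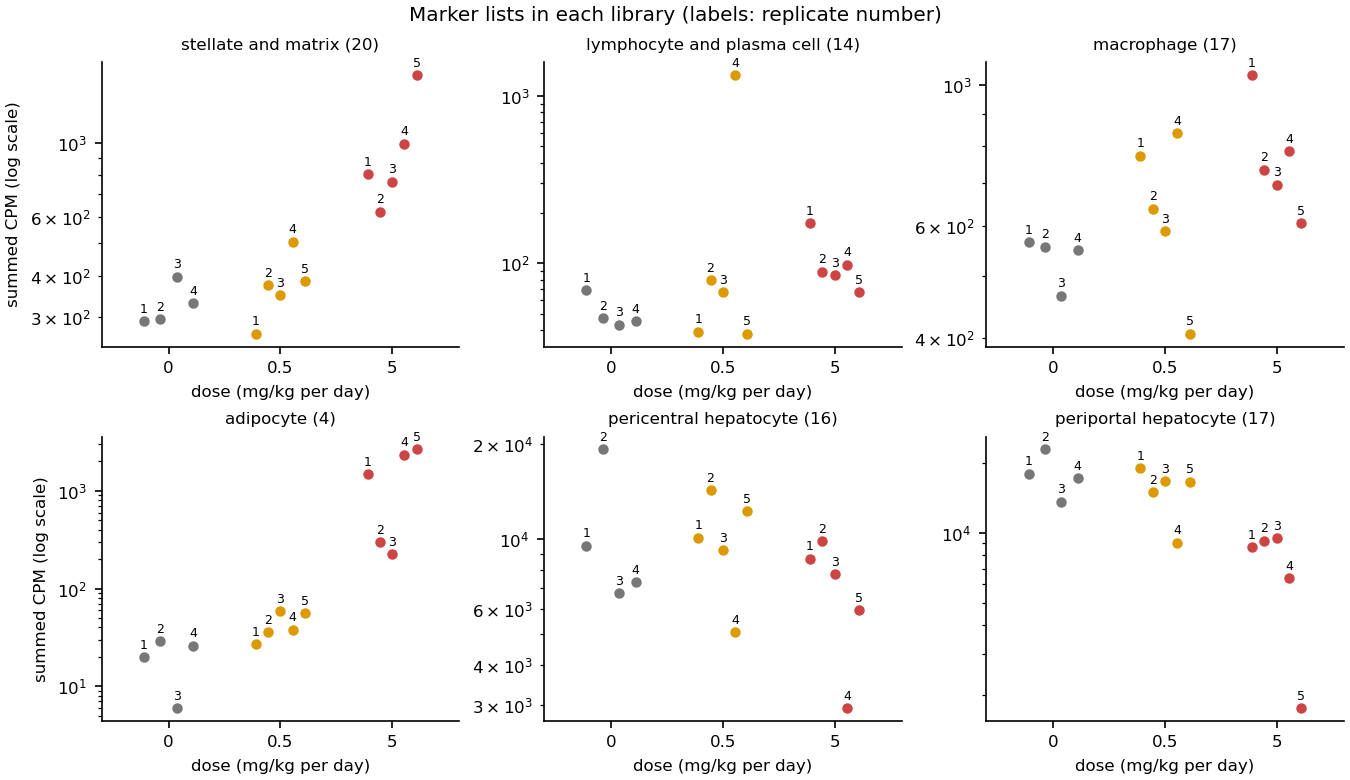
Summed CPM of 6 marker lists in each library at 0, 0.5 and 5 mg/kg, on log axes, labelled by replicate number, with the number of genes in parentheses. Replicate 4 at 0.5 mg/kg is highest for lymphocyte markers at 1330, and the 5 libraries at 5 mg/kg are above all others for stellate and adipocyte lists.

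Of 17 macrophage genes 3 rose at the step, and none did without replicates 4 and 5 at 5 mg/kg. The other 14 were not called, and the median step of the list was 0.022, against -0.013 over all genes. Members not called went either way, with overlapping ranges. Clec4f was at 3.65 to 11 CPM at 0.5 mg/kg and 0.525 to 6.79 at 5 mg/kg, and Csf1r at 32.2 to 70.1 and 24.1 to 45.9. Mpeg1 was at 124 to 240 and 181 to 418 CPM. Gpnmb, a protein of lipid-laden macrophages, had no count in controls, 0.834 ± 0.995 CPM at 0.5 mg/kg and 9.04, 15.6, 17, 2.88 and 41.9 CPM at 5 mg/kg (edgeR adjusted p = 0.011, and 0.0626 without replicate 5 at 5 mg/kg). Lgals3, a galectin, was at 6.33, 2.55, 2.85, 4.38 and 49.8 CPM at 5 mg/kg, and its step of 2.85 (adjusted p = 0.0301) was 1.15 (adjusted p = 0.559) without replicate 5. The call was also lost without replicate 1, 2, 3 or 5 at 0.5 mg/kg, with adjusted p up to 0.0856, and in the fit of all 92 libraries (0.0681). Cxcr1, a chemokine receptor that is not on this list, was at 0.319 ± 0.281 CPM at 0.5 mg/kg and at 7.62, 44.7, 59.6, 4.13 and 36.6 CPM at 5 mg/kg (step 6.46, SE 0.81, adjusted p = 2.19e-05). Lymphocyte, endothelial, bile duct and blood cell markers gave no call at the step by edgeR. Of these lists 3, 2, 2 and 1 genes had an unadjusted p under 0.05, and DESeq2 called 0, 1, 1 and 1. The summed level of macrophage genes was 406 to 839 CPM at 0.5 mg/kg and 605 to 1035 at 5 mg/kg. The part of cell composition in the matrix and macrophage rises was not tested.

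In the cell cycle list 4 of 29 genes rose at the step and none at 0.5 mg/kg by edgeR (4 at an unadjusted p under 0.05, and 1 by DESeq2). The median log2 change of the list was 0.765 at 0.5 mg/kg and 0.96 at the step, against 0.028 and -0.013 over all genes. When single libraries were left out 1 to 9 rose at the step, the fewest without replicate 1 at 0.5 mg/kg. Ccnd1, cyclin D1, was at 2.3 ± 1.49 CPM at 0 mg/kg. It was at 13.1, 12.9, 4.15, 12.3 and 7.97 CPM at 0.5 mg/kg and at 50.6, 25.5, 59.9, 49.2 and 25.8 CPM at 5 mg/kg, with no overlap between the 2 doses (step 2.07, SE 0.46, edgeR adjusted p = 0.00804). The change of Ccnd1 at 0.5 mg/kg was 2.12 (SE 0.54) and was not called (adjusted p = 0.0727). It was 50.6% of that at 5 mg/kg on the log2 scale. Mcm7, a subunit of the replicative helicase, was at 11.9 ± 4.26 and 23.2 ± 5.64 CPM (0.96, adjusted p = 0.0169, and 0.0577 and 0.0551 without replicates 1 and 3 at 0.5 mg/kg, and 0.299 in the fit of all 92 libraries). Of 15 p53 and DNA damage genes 3 rose, with 0 to 4 when single libraries were left out and none without replicate 1 at 0.5 mg/kg. Gadd45a, a stress sensor, was at 70.8, 91.1, 75.3, 64.7 and 60.2 CPM at 0.5 mg/kg and at 205, 152, 149, 377 and 295 CPM at 5 mg/kg. The ranges did not overlap, yet its adjusted p of 0.0243 rose to between 0.0507 and 0.0674 without replicate 1, 3 or 5 at 0.5 mg/kg or replicate 4 or 5 at 5 mg/kg, and to 0.302 without both of the latter.

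Cela1, an elastase known from the pancreas, was high in 2 livers, at 4.65, 4.53, 1.61, 52.3 and 65.5 CPM at 5 mg/kg against 1.92 ± 1.19 CPM at 0.5 mg/kg (step 3.76, edgeR adjusted p = 0.0258). Without these 2 livers, replicates 4 and 5, the step was 0.91 (adjusted p = 0.906), and the call was also lost without replicate 4 alone (adjusted p = 0.0594), replicate 5 alone (0.0856) or replicate 1, 3 or 5 at 0.5 mg/kg (0.0645, 0.0558 and 0.0678), and in the fit of all 92 libraries (0.133). The pancreatic enzymes Prss1, Prss2, Try5, Ctrb1 and Cel had no count in any of the 10 libraries.

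The step from 0.5 to 5 mg/kg was set against that of males treated for 18 months (5 animals at 0.5 mg/kg and 3 at 5 mg/kg) as an interaction in a fit of all 92 libraries. Of 13681 genes 15 differed (0.110%), all with a lower step at 9 months. They included Asl (difference -2.33, SE 0.46, edgeR adjusted p = 0.00657) and the acute phase protein Serpina3n (-4.58, SE 0.71, adjusted p = 0.000155). At 18 months Serpina3n was at 45.1, 100, 36.6, 51.8 and 43.5 CPM at 0.5 mg/kg and at 47.5, 1992 and 19.4 CPM at 5 mg/kg, and Asl was at 202, 926 and 131 CPM at 5 mg/kg. Replicate 2 of the 18-month 5 mg/kg group was the high library in both. Without that library no gene differed by edgeR, with 425 genes at an unadjusted p under 0.05. None did in a fit of the 4 groups alone either, with 649 at an unadjusted p under 0.05. Without single 9-month libraries 7 to 20 genes differed: 7 without replicate 1 or 5 at 0.5 mg/kg, and 9, 7 and 9 without replicates 2, 3 and 5 at 5 mg/kg. The difference of duration cannot be told apart from age. In the same fit the step itself was called for 221 genes (1.62%) in 9-month males, 114 up (0.833%) and 107 down (0.782%), and for 202 (1.48%) in 18-month males, 155 up (1.13%) and 47 down (0.344%).

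Against 9-month females (5 animals at either dose) 2 genes differed (0.0146%), and both had their step in females, in whom 53 genes were called for it in the fit of all libraries (0.387%), 35 up (0.256%) and 18 down (0.132%). Cdadc1, named for a deaminase domain, was at 2.16, 1.67, 0.297, 0 and 1.77 CPM in females at 0.5 mg/kg and had no count in the 5 females at 5 mg/kg. In males it was at 0.568, 1.44, 0.181, 2.93 and 0.544 CPM at 0.5 mg/kg and at 1.42, 1.56, 3.34, 1.38 and 0.35 CPM at 5 mg/kg (edgeR adjusted p = 0.0242 for the difference). These levels are low, and the ranges of the males overlapped. Ehhadh was at 898 ± 81.1 CPM in females at 0.5 mg/kg and at 7675 ± 2918 at 5 mg/kg, a step of 3.10 (SE 0.41) against 1.86 (SE 0.39) in males, and the difference was not called (adjusted p = 0.516). The step of Fabp4 in females was 1.12 (SE 0.65) against 5.16 (SE 0.75) in males, a difference of 4.04 (SE 0.93, adjusted p = 0.123). Cdadc1 was not called without replicate 1, 3 or 5 at 0.5 mg/kg or 3 at 5 mg/kg, and 4 genes were called without replicate 1 at 5 mg/kg.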

How the data were processed

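The authors deposited 1 table of raw TempO-Seq counts for 92 livers, with 30146 probe rows. Per the submitters' processing notes, bcl2fastq 2.17.1.14 and Bowtie were used. The version of Bowtie, the probe manifest and the genome build are not given in the sources used here. Probe counts were summed by symbol to 21400 genes. edgeR 4.0.16 in R 4.3.3 (TMM, filterByExpr, robust quasi-likelihood test) was fitted to the 24 males of 9 months, with dose as the only term, and p-values were adjusted over 11371 genes. Standard errors were obtained from each log2 change and its F statistic, and 95% intervals use the t distribution. Interactions came from one fit of all 92 livers. Total counts ran from 4443349 to 7717469 in the 24 livers. The procedure was tested on simulated data. Animals are the replicates, and p-values measure the spread between them.

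The members of the comparison and the gene lists were chosen with earlier results of these data known, and lists are described by counts and medians. Genes were named where they had at least 10 mean counts in a group and fell under one of these parts: the 12 largest non-overlapping rises and falls, the 6 largest of each class and direction, the called list members with the smallest adjusted p (3 for the step, 2 at 0.5 mg/kg), a fixed set of PPARα and reference genes, and the 4 largest of each interaction. Of the genes described, Abcd2, Abcd3, Acta2, Akr1c18, Arg1, Bhmt, Clec4f, Col1a1, Crat, Csf1r, Cyp4a31, Cyp4a32, Dbi, Etfdh, Fabp3, Hsd3b5, Hsdl2, Mcm6, Mpeg1, Nceh1, Nudt7, Otc, Scp2 and Ucp3 were chosen after their values were seen. Some genes that the rule names are not reported here. Alternatives were RLE scaling, no low-count filter, other sets of livers in the fit, DESeq2 1.42.0, an adjusted p under 0.01, a minimum fold of 1.5, a narrower interval, unsummed probes and each animal left out. Leaving out replicate 4 at 0.5 mg/kg together with replicates 4 and 5 at 5 mg/kg, and leaving out replicate 2 of the 18-month 5 mg/kg group, were chosen after seeing the data. Promoters came from RefSeq (GRCm38.p6), and figures were drawn with matplotlib 3.10.9.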

Additional observations from a re-analysis of the deposited data

Results flagged for a closer look

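In 26 of 337 sets of 4 or 5 animals the highest or lowest value of a gene lay far from the others of its group, where chance gives about 1 in 20. Replicate 4 at 5 mg/kg held the low values of Ehhadh (5621 CPM), Hadhb (226), Car3 (117) and Ucp3 (5.88) and the high values of App (110) and Afp (155). Replicate 5 at that dose held the high values of Pdk4 (67.5 CPM), Scd2 (301), Anxa2 (131), Col1a2 (95), Plk2 (29.3), Lgals3 (49.8) and Col1a1 (203) and the low value of Cpt1a (10.2). Replicate 2 held the high values of Cyp4f14 (19.3 CPM) and Mcm6 (102). The values apart at 0.5 mg/kg were high for Cpt1b (65.2 CPM), Cidea (1.81), Hsd3b5 (6.25), Ucp3 (5.80) and Mcm6 (26.3) and low for Mup3 (4234) and Gadd45b (6.71). In controls they were low for Scp2 (2536 CPM) and high for Akr1d1 (178) and Cdadc1 (3.47). What sets these animals apart was not tested.

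The step from 0.5 to 5 mg/kg was lower in 9-month than in 18-month males on the log2 scale for Asl (-2.33), Arg1 (-2.33), Serpina3n (-4.58), Serpina3m (-3.86), Saa1 (-7.37) and Olig1 (-7.68), by the interaction in the fit of all 92 livers. No gene was called without replicate 2 of the 18-month 5 mg/kg group, with 425 at an unadjusted p under 0.05. Against 9-month females the step was higher in males for Cdadc1 (6.97).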

How the results depend on the processing

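The 530 genes called between 0.5 and 5 mg/kg became 221 in a fit of all 92 livers, 189 at an adjusted p under 0.01, and 173 and 254 without replicates 4 and 5 at 5 mg/kg and without these and replicate 4 at 0.5 mg/kg. The 1437 called between 0 and 5 mg/kg became 705 at an adjusted p under 0.01 and 799 and 913 without those libraries. The 72 called at 0.5 mg/kg became 33 in the fit of all livers, 33 at an adjusted p under 0.01, 171 by DESeq2, and 123 and 141 without those libraries. The class changed only at 5 mg/kg (243) held 155 genes in a fit of 3 doses, 70 in the fit of all livers, 84 at an adjusted p under 0.01, 127 with the narrower interval, and 78 and 130 without those libraries. The plateau class (21) held 8 in the fit of all livers, 50 by DESeq2, 9 at an adjusted p under 0.01, 10 with the narrower interval, and 38 and 66 without those libraries. The graded class (20) held 5 in the fit of all livers, 45 by DESeq2 and 9 at an adjusted p under 0.01. DESeq2 put 3 genes in the class that turned. Without 1 library in turn the counts ran from 283 to 656 for the step, 37 to 96 at 0.5 mg/kg, 136 to 311 changed only at 5 mg/kg, 10 to 32 at a plateau, 12 to 33 graded and 0 to 1 turned. Against 18-month males (15) the range was 0 to 20, with 3 genes without replicates 4 and 5 at 5 mg/kg and 0 in a fit of 4 groups (649 at an unadjusted p under 0.05). Against females it was 1 to 4. The step of Saa1 ran from -0.79 to 0.21 without single libraries and was 0.22 without replicates 4 and 5 at 5 mg/kg. It is uncalled, and the cause was not tested. Probes fitted singly gave 548 calls of 15966, in 465 genes. No paired analysis was possible because the replicate numbers only name animals. Steps with wide intervals, such as that of Cyp4a10, cannot be placed with 4 or 5 animals.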

Other observations

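Further genes of the comparison fell into the list of fetal and tumour liver, of which 5 of 12 tested rose at the step. These were Ly6d (3.94), Akr1c18 (3.81), Scd2 (3.31), Lgals3 (2.85) and Golm1 (1.56) on the log2 scale. Without replicates 4 and 5 at 5 mg/kg 1 rose, and without replicate 4 at 0.5 mg/kg as well 3 did. Of 25 tested genes of oxidative stress and glutathione, Srxn1, which repairs peroxiredoxins, rose by 1.67 and the transferases Gsta4 (-1.18) and Gstp1 (-1.41) fell. Without replicates 4 and 5 at 5 mg/kg none of these 25 rose and 1 fell. The shares over all genes at the step were 2.15% up and 2.52% down. The 5 of 12 fetal and tumour liver genes are above the share that rose. Among the 25 oxidative stress genes, 1 rise and 2 falls are small counts that were not tested against these shares.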
